A study of Mus musculus with 4 samples.

Results

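The endothelial programme of the newborn liver was examined in livers that lacked the Hippo kinases Lats1 and Lats2. The members were 32 genes named in advance, 6 of them sinusoidal (Stab1, Stab2, Lyve1, Clec4g, Oit3 and Fcgr2b) and 26 pan-endothelial, and every probe annotated to them was taken from Illumina MouseRef-8 v2.0 bead arrays whose annotation names 16593 genes in all. Arrays of whole livers at postnatal day 1 were compared, 2 from DKO mice (Lats1-/-;Lats2f/fl;Alb-cre) and 2 from control mice labelled wild type, all of mixed B6;129 strain. All were labelled female and, per the labels, the pups came from the same pregnant mice. The arrays are called DKO 1, DKO 2, control 1 and control 2 after their titles. Lats1 was absent from every cell of the DKO animals, whereas Lats2 was deleted only where Albumin-Cre, a recombinase driven by the promoter of a hepatocyte gene, is active. Endothelial cells are thus not the target of the Cre, although they lacked Lats1. The labels do not say whether the controls carried floxed alleles or whether the arrays of a group are different animals, and p-values then measure a spread that may be technical.

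Endothelial cells line all vessels and are known by junction proteins, receptors for VEGF and angiopoietins, and transcription factors of the ETS and SOX families. The sinusoids of the liver carry a specialised, fenestrated endothelium that clears waste from the blood through scavenger receptors. Sinusoidal identity is acquired during fetal and neonatal life. In bulk tissue, fewer endothelial cells and less of an RNA per cell cannot be told apart.

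Between 12514 and 13641 of 25697 probes were detected per array (48.7% to 53.1%), and the number of arrays limits the precision. A probe was called detected at a detection p under 0.05. 13654 probes detected on at least 2 arrays were tested, and each gene was read from its brightest tested probe. The Lats2 probe read 6.53 and 6.06 (normalized log2 intensity) on DKO 1 and DKO 2 and 5.92 and 5.47 on control 1 and control 2. Where this probe lies in the gene was not looked up, so it does not check the genotype, and Lats1 had no named probe. Control 2 read as male against its label, since the Y-linked gene Eif2s3y was at 11.31 there and at 4.69 to 4.94 on the other 3 arrays. Leaving out control 2 turned the sign or moved the log2 change by over 1.5 times in 15 of the 29 tested members, and its value is given beside each of them. Where an array was left out, the single array of its group was assumed to vary like the pair of the other. All 11 hepatocyte markers with a named probe were detected on at least 2 arrays, and among the members Pecam1 and Cdh5, which mark endothelium, were detected on all 4 arrays.

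No endothelial gene passed the test. Of the 32 members, 31 had a named probe (45 probes in all), Cldn5 had none, Aplnr and Erg were not detected on any array, and 29 were tested. By limma with Benjamini-Hochberg adjustment over all probes, 0 of these 29 genes were higher and 0 were lower in DKO livers, against 3.43% of all 9502 tested genes called in either direction (1.75% higher and 1.68% lower). At an unadjusted p under 0.05, 4 of 29 passed (Sox17 higher, and Oit3, Eng and Vwf lower), or 13.8% against 16.1% of all genes, a share near that background. The log2 changes ran between -0.95 for Oit3 and 1.29 for Sox17. Their median was -0.20, against 0.0044 over all tested genes, and the median standard error was 0.37. With 2 arrays per group, the 95% intervals of the 29 changes reached as low as -1.96 and as high as 2.27. In simulated data 4 of 50 probes with a true log2 change of 1 were called, and 35 of 50 with a change of 2. There, all probes were unchanged except 50 each at log2 changes of 1, 2, 3 and 4. The shares may therefore differ in the real data. A missing call therefore does not show that a gene was equal in both groups.

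**Figure D1:**
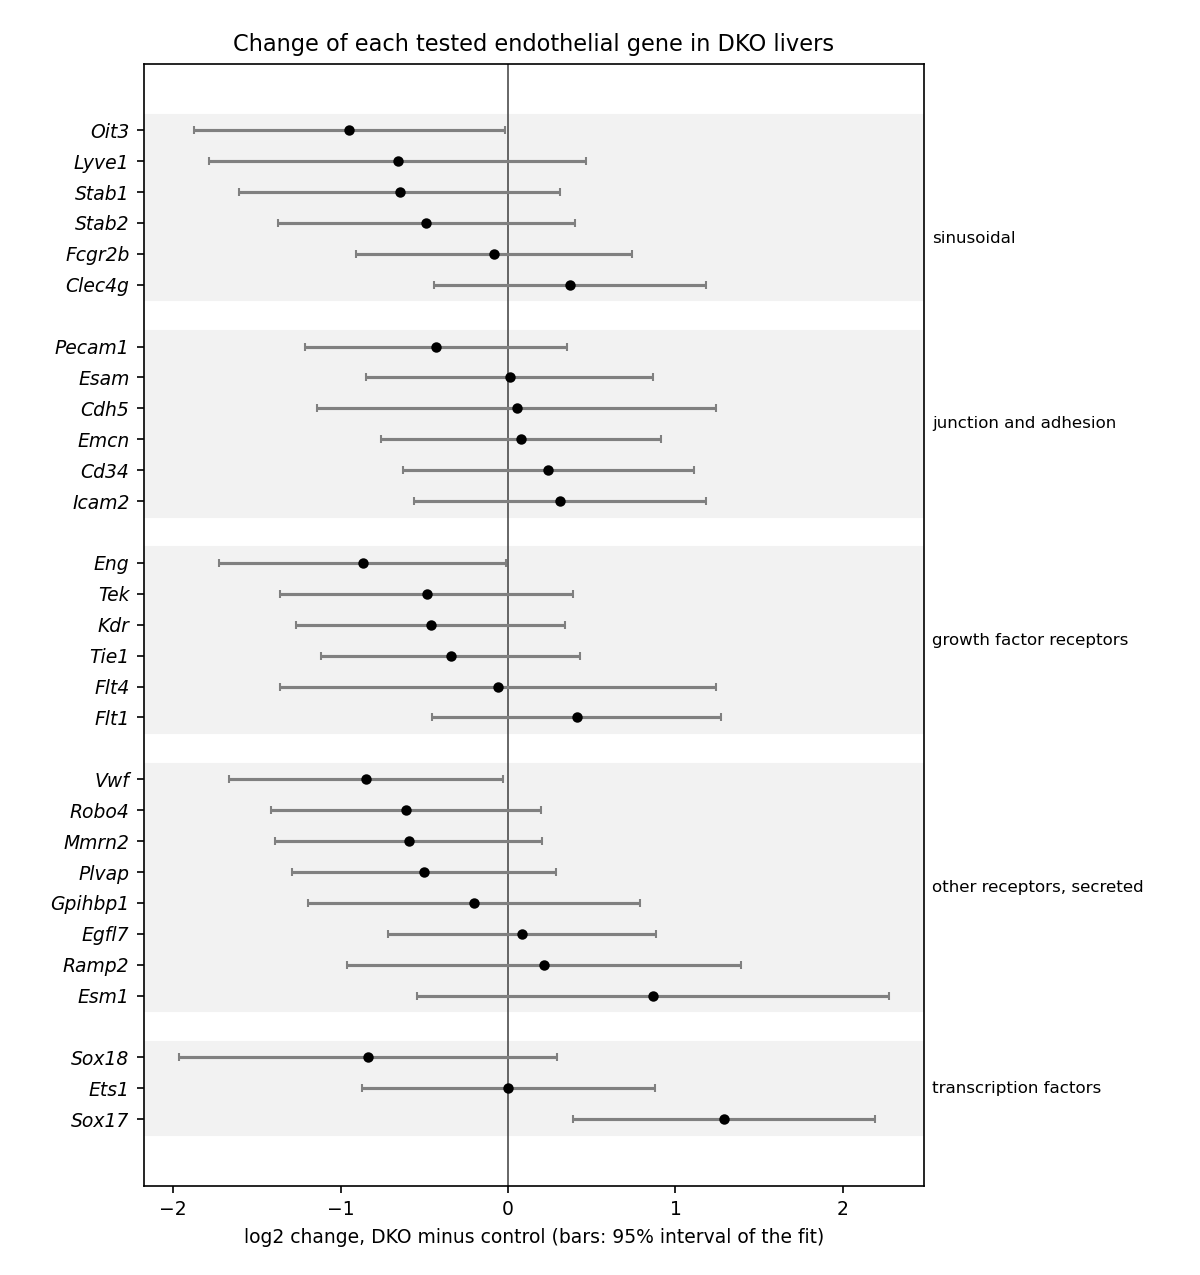
The log2 change (DKO minus control, horizontal axis) is plotted for each of the 29 tested endothelial genes, grouped by role; points are fitted changes and bars are 95% intervals. The intervals of Oit3, Eng, Vwf and Sox17 exclude 0 before adjustment, and Sox17 has the highest change, 1.29.

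Of the 29 log2 changes 17 were negative and 12 positive, against 49.7% negative over all tested genes. In 12 of 29 members (41.4%) both DKO values lay below both control values, against 22.8% of all tested genes, and in 2 of 29 (6.90%) both lay above, against 22.7% of all genes. The 12 were Stab1, Stab2, Oit3, Pecam1, Kdr, Tek, Tie1, Eng, Robo4, Mmrn2, Vwf and Plvap, and the other two were Clec4g and Sox17. Kdr was detected in controls only, so it could pass the detection filter only in that direction. Among the 27 members detected on all 4 arrays the counts were 11 and 2. These shares are a description, since members were not tested as a set.

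Promoter sequences were set beside these genes because 12 members shared the same arrangement of values. RefSeq promoters (GRCm38.p6, 250 bases before to 50 after the start) were at hand for 17 of the 32 members, 21 sequences in all, and for 7 of the 12. The 3 of those 7 with the smallest p are printed, with matches to 4 motifs in capitals. The motifs, searched on both strands, were GGAAG (the core bound by ETS factors), CCGGAA (a longer ETS form that shares GGAA with the core), GGAATG (the TEAD motif, through which YAP and TAZ act) and ACAAAG (a SOX motif).
Eng promoter (chr2:32646345-32646644, + strand): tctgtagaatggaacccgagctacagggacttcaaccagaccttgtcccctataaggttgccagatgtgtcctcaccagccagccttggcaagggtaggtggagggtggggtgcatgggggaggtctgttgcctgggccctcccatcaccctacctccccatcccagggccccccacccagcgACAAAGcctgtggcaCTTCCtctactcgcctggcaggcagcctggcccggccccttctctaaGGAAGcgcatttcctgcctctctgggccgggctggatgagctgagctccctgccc
Robo4 promoter (chr9:37401722-37402021, + strand): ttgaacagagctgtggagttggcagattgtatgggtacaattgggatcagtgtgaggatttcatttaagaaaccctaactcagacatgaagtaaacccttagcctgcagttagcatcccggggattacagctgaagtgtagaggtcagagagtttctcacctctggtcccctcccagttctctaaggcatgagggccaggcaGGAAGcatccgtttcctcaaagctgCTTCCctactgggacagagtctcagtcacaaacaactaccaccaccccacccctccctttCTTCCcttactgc
Stab1 promoter (chr14:31168592-31168891, - strand): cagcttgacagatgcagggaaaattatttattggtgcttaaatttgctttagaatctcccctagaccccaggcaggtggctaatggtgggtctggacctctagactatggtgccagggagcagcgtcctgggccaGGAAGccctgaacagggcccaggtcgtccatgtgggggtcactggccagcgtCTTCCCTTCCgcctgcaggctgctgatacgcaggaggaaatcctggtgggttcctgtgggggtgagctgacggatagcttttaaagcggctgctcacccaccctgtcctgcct
The capitals mark the ETS core in all 3 promoters and, in that of Eng alone among the printed sequences, ACAAAG as well. GGAAG was held by 16 of the 21 member promoters (76.2%), against 71.4% of all 32851 promoters of that length. CCGGAA was in 1 of 21, that of Kdr, against 14.9% of all promoters. GGAATG was in 3 of 21, those of Emcn and Erg, against 14.7%, and ACAAAG in 3 of 21, those of Egfl7, Eng and Tek, against 18.7%. A match is a description of letters and not of a bound site.

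Among the sinusoidal genes, 5 of 6 had negative log2 changes and none passed the test. Oit3, expressed by sinusoidal endothelium in the liver, read 9.50 on DKO 1 and 8.90 on DKO 2, against 10.44 on control 1 and 9.85 on control 2. Both DKO arrays were thus below both controls, by 1.93-fold on average (log2 change -0.95, SE 0.39, adjusted p = 0.32). A dimmer probe for Oit3 was detected on neither DKO array and on both control arrays. It could thus pass the detection filter only in that direction. On control 1 and control 2 it read 5.77 and 5.78, near the lowest detected levels there (5.51 and 5.68). Its measured means gave a bound of at least 1.18-fold lower in DKO livers. The bound leaves out the spread between arrays, and the 95% interval of the log2 change was -1.15 to 0.39. For this bound each DKO value was raised to the lowest level of any detected probe on its array where it lay under it.

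The scavenger receptor gene Stab1 (stabilin 1) read 8.49 and 8.62 on DKO 1 and DKO 2, against 8.74 and 9.66 on control 1 and control 2. Its log2 change was -0.65 (SE 0.41, adjusted p = 0.55), and -0.19 without control 2, the array that read as male. Stab2 (stabilin 2), a scavenger receptor gene for hyaluronan, read 9.52 and 8.80 in DKO livers and 9.63 and 9.65 in controls (-0.49, SE 0.38, adjusted p = 0.64). DKO 1 was close to the controls, and the log2 change without DKO 2 was -0.13. Lyve1, a hyaluronan receptor of sinusoidal and lymphatic endothelium, read 11.56 and 10.80 in DKO livers and 12.39 and 11.29 in controls (-0.66, SE 0.48, adjusted p = 0.62). The Lyve1 groups overlapped only in that control 2 lay below DKO 1, and array 2 was the lower in both groups. With arrays blocked by their title number, the SE was 0.27 (limma adjusted p = 0.16). The log2 change was -1.21 without control 2 and -0.11 without control 1.

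The lectin gene Clec4g was the sinusoidal gene with the opposite sign. It read 11.31 and 10.97 in DKO livers and 10.64 and 10.90 in controls (0.37, SE 0.35, adjusted p = 0.72), so that both DKO values were above both controls, DKO 2 by little. Fcgr2b, the inhibitory Fc receptor that clears immune complexes in sinusoids and is also found on B cells and macrophages, read 8.55 and 8.11 in DKO livers and 8.51 and 8.32 in controls. Its log2 change was -0.08 (SE 0.35, 95% interval -0.91 to 0.74), or -0.18 without control 2, and that of its other tested probe was 0.02.

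Set against the pan-endothelial genes, the sinusoidal genes had the lower median log2 change, -0.57 over 6 genes against -0.06 over 23, a difference of -0.51. This difference did not hold when single arrays were left out. It was 0.0050 without control 1, -0.053 without control 2 and 0.082 without DKO 2, and stayed at -0.45 without DKO 1. Measured as the median deviation from each gene's own mean over the arrays, the sinusoidal genes stood at 0.08 on DKO 1 and -0.43 on DKO 2, against 0.19 on control 1 and 0.06 on control 2. DKO 2 alone was low. The pan-endothelial genes stood at -0.15 and -0.14 on DKO 1 and DKO 2, against 0.14 and 0.11 on control 1 and control 2, so that their 2 DKO medians lay together below the controls. With any 1 array left out, the median change of the pan-endothelial genes was between -0.31 and -0.26, lower than the -0.06 with all arrays, at which the median gene was Flt4. No p is given for these summaries, since 2 arrays against 2 cannot go below a two-sided exact permutation p of 0.33.

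**Figure D2:**
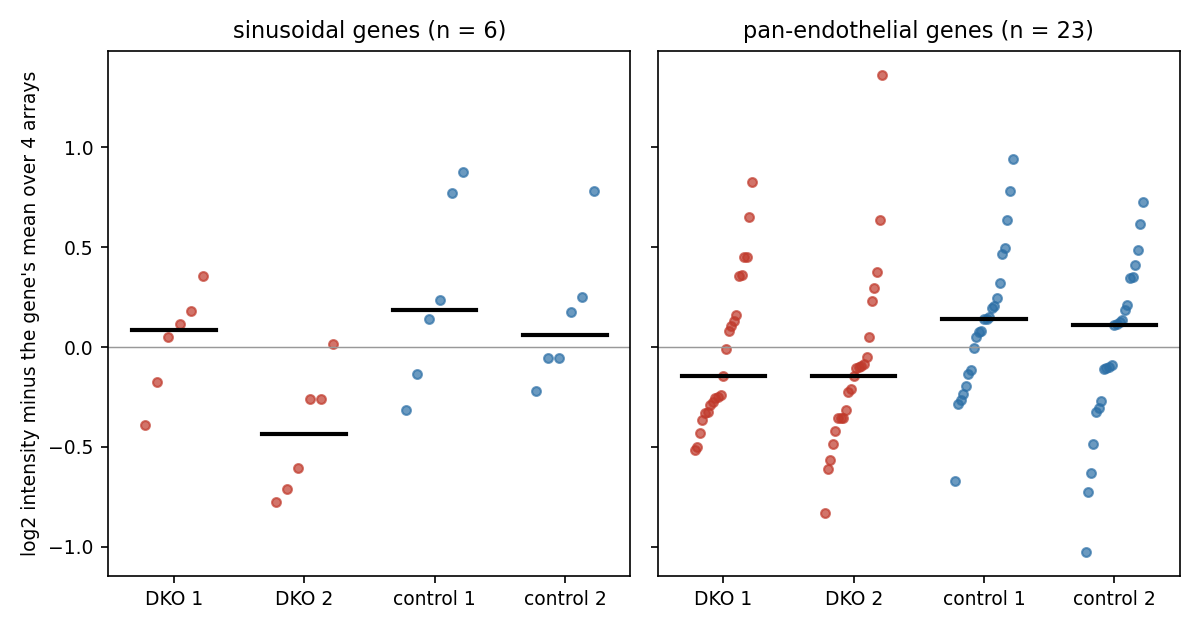
Each point is a tested gene, plotted as its log2 intensity minus its own mean over the 4 arrays (vertical axis) for DKO 1, DKO 2, control 1 and control 2, with sinusoidal genes in the left panel and pan-endothelial genes in the right; black lines are medians. The sinusoidal median is low on DKO 2 alone (-0.43), while the pan-endothelial medians are at -0.15 and -0.14 on the DKO arrays and at 0.14 and 0.11 on the control arrays.

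None of the 6 tested genes of endothelial junctions and surface adhesion passed the test. All 6 had log2 changes of less than 0.5 in either direction, with a median of 0.07. Pecam1 (CD31), an adhesion molecule of endothelial junctions that platelets and leukocytes also carry, was the one with separated groups, at 8.07 and 8.30 in DKO livers and 8.64 and 8.59 in controls (-0.43, SE 0.33, adjusted p = 0.64). Its second probe gave -0.53. Cdh5 (VE-cadherin), the main cadherin of endothelial junctions, read 6.10 and 6.80 in DKO livers and 5.75 and 7.04 in controls. The 2 controls differed more than the groups, and the log2 change of 0.05 had a 95% interval of -1.14 to 1.24. It was 0.70 without control 2 and -0.59 without control 1. Esam, a junctional adhesion molecule, read 10.89 and 11.47 in DKO livers and 11.25 and 11.09 in controls (0.01, SE 0.36), with a log2 change of -0.074 without control 2. The sialomucins Emcn and Cd34 and the adhesion gene Icam2 had log2 changes of 0.08, 0.24 and 0.31, with standard errors of 0.35 to 0.37. Their groups overlapped in every case. Without control 2 the log2 changes were -0.16 for Emcn and 0.16 for Icam2, and Icam2 was at 0.61 without DKO 2.

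Of the 6 growth factor receptor genes, 5 had negative log2 changes. Eng (endoglin), a co-receptor for BMP9 and TGF-beta that stellate cells, macrophages and early erythroid cells can also express, read 7.87 and 8.03 in DKO livers and 8.52 and 9.11 in controls. Both DKO values were below both controls, by 1.82-fold on average (-0.87, SE 0.36, adjusted p = 0.32), and the log2 change was -0.57 without control 2. Its promoter is the first printed above. The angiopoietin receptor Tek (TIE2) read 8.37 and 7.73 in DKO livers and 8.44 and 8.64 in controls (-0.49, SE 0.37). The Tek difference lay mostly in DKO 2, with a log2 change of -0.16 without DKO 2 and -0.81 without DKO 1. Its relative Tie1 read 6.12 and 6.28 in DKO livers and 6.57 and 6.51 in controls (-0.34, SE 0.33).

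None of the 3 VEGF receptor genes passed the test. Kdr (VEGFR2), the main signalling receptor for VEGF-A, was read by a dim probe, detected on both controls (5.63 and 5.99) and on neither DKO array (5.34 and 5.35). The measured means come to a bound of at least 1.20-fold lower in DKO livers, which leaves out the spread between arrays. The fitted log2 change was -0.46 (95% interval -1.26 to 0.34, adjusted p = 0.62), and -0.28 without control 2. Flt1 (VEGFR1), a decoy for VEGF-A, read 10.44 and 10.14 in DKO livers and 10.16 and 9.60 in controls (0.41, SE 0.37, adjusted p = 0.70), with overlapping groups, and its log2 change was 0.13 without control 2. Flt4 (VEGFR3), the receptor for VEGF-C of lymphatic and sinusoidal endothelium, was detected on 1 array of each group. It read 6.10 and 5.32 in DKO livers and 6.52 and 5.02 in controls, and its log2 change of -0.06 had a 95% interval of -1.36 to 1.24. It was -0.81 without control 2 and 0.70 without control 1.

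**Figure D3:**
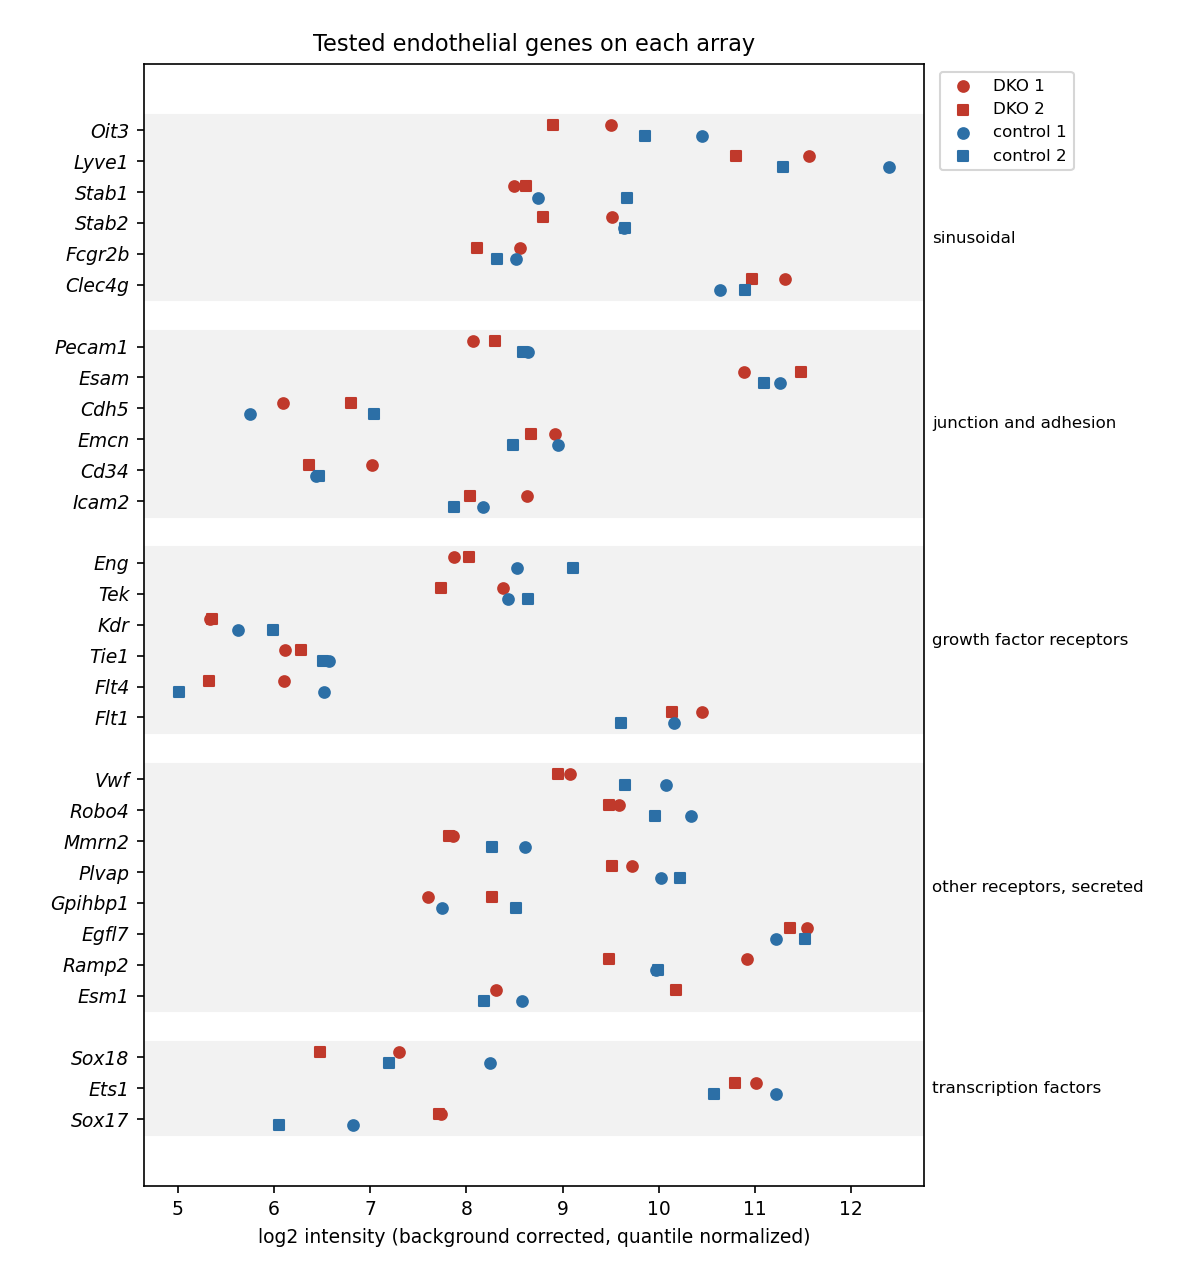
Normalized log2 intensity (horizontal axis) of the 29 tested endothelial genes on DKO 1, DKO 2, control 1 and control 2, grouped by role; levels cannot be compared between genes, since each has its own probe. For Eng the DKO arrays (7.87 and 8.03) lie left of the controls (8.52 and 9.11), for Sox17 they lie right of them, and for Esm1 DKO 2 (10.17) lies apart from the other 3 arrays.

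Among other endothelial receptors and secreted factors, 5 of 8 tested genes had negative log2 changes. Vwf (von Willebrand factor), stored by endothelial cells and by megakaryocytes, read 9.08 and 8.96 in DKO livers and 10.08 and 9.65 in controls, 1.80-fold lower on average (-0.85, SE 0.35, adjusted p = 0.31). Both DKO values were below both controls. On the same arrays 7 of 8 tested megakaryocyte and platelet markers had negative changes (median -0.70), where 49.7% of all genes did. The summed linear level of these markers was 9779 on DKO 1 and 6287 on DKO 2. It was 9030 on control 1 and 15655 on control 2, and was thus not separated between the groups. The sum adds probes of different brightness. Of the 8 markers 3 had an unadjusted p under 0.05, all lower, against 8.03% of all genes. Each of the 3 had both DKO values below both controls, as had 22.8% of all tested genes. Itgb3 of that list was detected on no array. The part of these cells in the Vwf difference was not tested.

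Robo4, a guidance receptor that stabilises vessels, read 9.58 and 9.49 in DKO livers and 10.33 and 9.96 in controls (-0.61, SE 0.34, adjusted p = 0.49). Mmrn2 (multimerin 2), a matrix protein of the endothelial surface, read 7.86 and 7.82 in DKO livers and 8.61 and 8.26 in controls (-0.59, SE 0.34, adjusted p = 0.50). Plvap, which forms the diaphragms of endothelial fenestrae and caveolae, read 9.73 and 9.51 in DKO livers and 10.02 and 10.22 in controls (-0.50, SE 0.34, adjusted p = 0.58). In all 3 the DKO arrays stood together below the controls. Robo4 had 2 further probes that were not detected on any array.

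The remaining 4 genes of this class had overlapping groups. Egfl7, a secreted factor of vascular tube formation, had log2 changes of 0.08 and 0.09 by its 2 tested probes, and 0.23 by the brighter one without control 2. Gpihbp1, which anchors lipoprotein lipase on capillaries, had -0.20 (SE 0.42), and 0.18 without control 2. Ramp2, the partner of the adrenomedullin receptor, read 10.91 on DKO 1 and 9.48 on DKO 2, on either side of controls at 9.97 and 9.99. Esm1 (endocan), a proteoglycan of sprouting tip cells, read 8.31 on DKO 1 and 10.17 on DKO 2, against 8.58 and 8.18 in controls. Its log2 change of 0.86 (SE 0.60, adjusted p = 0.60) rested on DKO 2, being -0.07 without DKO 2 and 1.80 without DKO 1 (adjusted p = 0.062). Beside these values, the summed linear level of the biliary marker list was 3853 on DKO 1 and 11023 on DKO 2. It was 1192 on control 1 and 963 on control 2. On DKO 1 this sum was above both controls, where Esm1 lay between them. Cldn4, the brightest probe of that sum on DKO 2, read 9.95 on DKO 1 and 12.57 on DKO 2. The part of biliary cells in the Esm1 values was not tested.

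None of the 3 tested transcription factor genes passed the test. Sox17, a SOX factor of arterial endothelium that is also known from the progenitors of the extrahepatic bile ducts, had the highest log2 change of the members. Its brighter probe read 7.73 and 7.71 in DKO livers and 6.82 and 6.05 in controls, 2.44-fold higher on average (log2 change 1.29, SE 0.38, unadjusted p = 0.012, adjusted p = 0.15). Its other probe, detected on 1 of the 2 controls, read 7.89 and 8.13 in DKO livers and 6.66 and 5.24 in controls (2.06, SE 0.50, adjusted p = 0.089). Both probes placed both DKO arrays above both controls. Control 2 was the lower control on both, and without it the changes were 0.91 and 1.35. The second probe passed without DKO 1 (2.18, adjusted p = 0.039) and not without DKO 2 (1.94, adjusted p = 0.12). It also passed without control 1 (adjusted p = 0.049), where the only control left was control 2, on which this probe was not detected.

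Sox18, a related SOX factor of vascular and lymphatic endothelium, read 7.29 and 6.47 in DKO livers and 8.24 and 7.20 in controls (-0.84, SE 0.48, adjusted p = 0.50). These groups overlapped only in that control 2 lay below DKO 1, and array 2 was the lower in both groups. The log2 change was -1.36 without control 2 and -0.31 without control 1. With arrays blocked by their title number, the SE was 0.27 (limma adjusted p = 0.076). Ets1, an ETS factor also abundant in lymphocytes, read 11.01 and 10.80 in DKO livers and 11.22 and 10.58 in controls (0.0025, SE 0.37, 95% interval -0.87 to 0.88), or -0.32 without control 2. Beside the Sox17 values, the biliary list had 3 of 6 tested genes higher in DKO livers, Cldn4, Krt7 and Krt19, with log2 changes of up to 5.49, against 1.75% of all genes called higher. The summed linear level of the list was 3853 on DKO 1 and 11023 on DKO 2. On control 1 and control 2 it was 1192 and 963. The brightest probes weigh most in it, Cldn4 on DKO 2 (12.57) and Krt23 on the controls (9.94 and 9.38). Krt23 had a negative log2 change (-0.58). The part of biliary cells in the Sox17 values was not tested.

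Of 27 angiogenic ligands and co-receptors, 15 were tested, none of them (0) was called by limma, and at p under 0.05 before adjustment there were 3, where 16.1% of all genes stood. Pdgfb, the PDGF ligand with which endothelium recruits pericytes, read 8.25 and 9.62 in DKO livers and 6.84 and 7.53 in controls (1.75, SE 0.52, adjusted p = 0.15). It passed without DKO 1 (2.44, adjusted p = 0.010) but not without DKO 2 (1.07, adjusted p = 0.58). Fgf1, a fibroblast growth factor, read 5.82 and 6.13 in DKO livers and 8.02 and 7.42 in controls (-1.74, SE 0.37, adjusted p = 0.058). The groups did not overlap for either gene. The other gene under that unadjusted threshold was Cxcl12. Its tested probes had log2 changes of -1.33, -1.75 and -1.12 (limma adjusted p = 0.24, 0.27 and 0.34), each without overlap of the groups. Vegfa, named after its values were seen because it is the main ligand of Kdr, read 12.71 and 11.96 in DKO livers and 11.86 and 11.82 in controls (0.49, SE 0.38, adjusted p = 0.64), with a log2 change of 0.12 without DKO 1. Of 2 dimmer Vegfa probes, one read 9.42 and 9.42 in DKO livers and 8.33 and 8.42 in controls (1.05, SE 0.33, adjusted p = 0.17). The other had 0.36 (SE 0.33). The list's median log2 change was 0.05.

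A list of 46 further endothelial and sinusoidal genes had 31 tested and 0 called by limma. Before adjustment 5 had p under 0.05, 4 of them higher, a share of the list like the 16.1% of all genes. Cav1, the main protein of caveolae, which many cell types express, read 11.06 and 11.93 in DKO livers and 10.20 and 9.51 in controls (1.63, SE 0.44, adjusted p = 0.12). It passed without DKO 1 (2.07, adjusted p = 0.031) but not without DKO 2 (1.20, adjusted p = 0.47). The basement membrane gene Nid1 read 11.37 and 11.95 in DKO livers and 10.34 and 10.72 in controls (1.13, SE 0.37, adjusted p = 0.20). The median of the list was 0.06, with 16 positive and 15 negative changes.

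Markers of other liver cells were read on the same arrays. Negative log2 changes were found in 7 of 7 tested erythroid, 12 of 12 granulocyte and 6 of 7 B cell precursor markers. Over all tested genes 49.7% were negative. The medians of these lists were -0.99, -0.45 and -0.61, and 0 of their genes were called by limma. Before adjustment 4, 2 and 2 had p under 0.05, all lower, against 8.03% of all genes lower at that threshold. Macrophages can also express Stab1, Lyve1 and Fcgr2b, and their list had 4 positive and 4 negative changes (median 0.16). Its summed linear level was 10035 and 9581 in DKO livers and 11218 and 9179 in controls. The stellate and fibroblast list had a median of -0.41, with sums of 22538 and 10639 in DKO livers and 30234 and 14707 in controls, and Lrat and Postn were detected on no array. The hepatocyte list had a median of -0.75 and 2 of 11 genes called lower, Cyp2e1 and Cyp7a1, against 1.68% of all genes. The erythroid sums were 101193 and 96612 in DKO livers and 134371 and 142362 in controls, and were separated between the groups. Hba-a1, the brightest probe in them, read 15.98 and 15.90 in DKO livers and 15.95 and 16.01 in controls. The hepatocyte sums were also separated (252231 and 235299 in DKO livers, 297635 and 269530 in controls). So were the granulocyte sums (104876 and 97474, against 108391 and 160598) and the B cell precursor sums (1361 and 997, against 1505 and 2647). The part of these cells in the endothelial values was not tested.

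**Figure D4:**
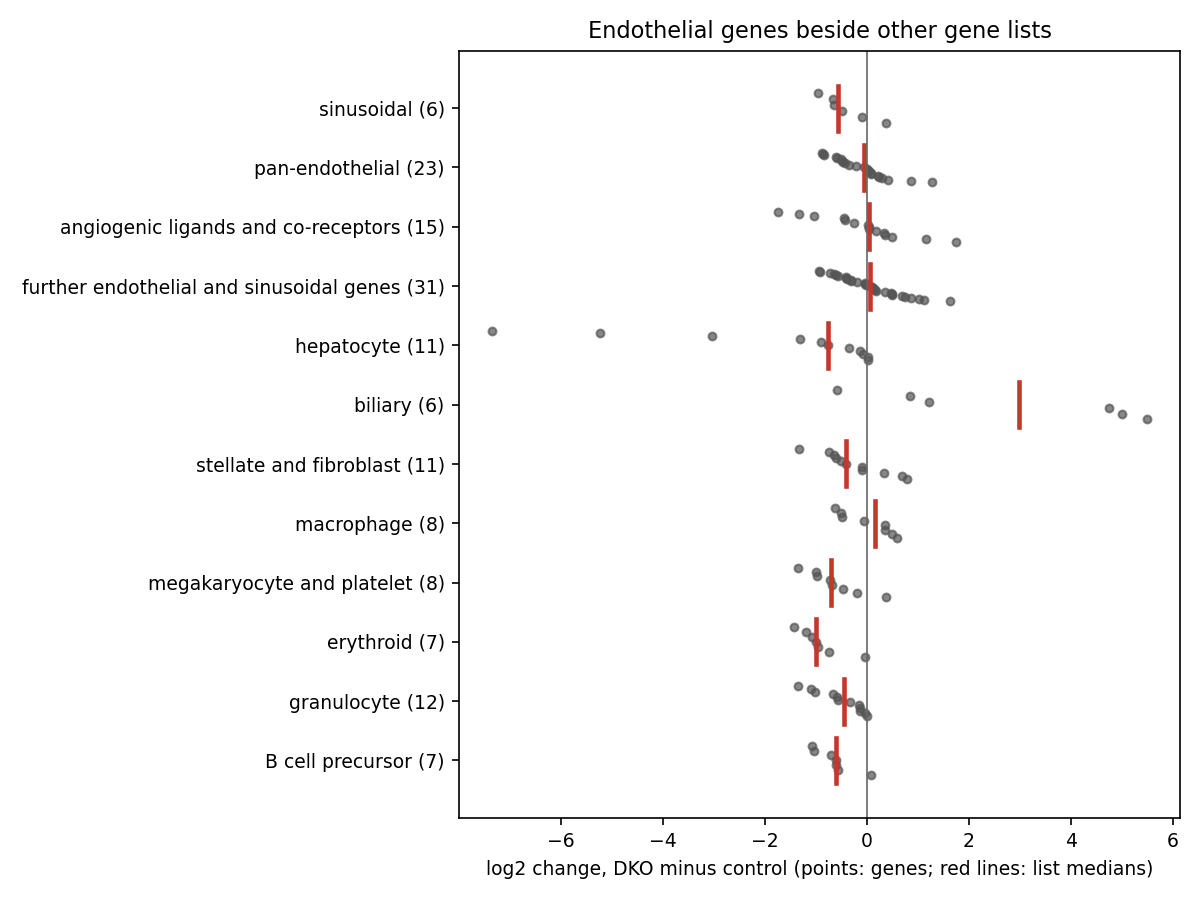
Log2 changes (DKO minus control, horizontal axis) of the tested genes in the sinusoidal and pan-endothelial groups and in 10 other lists, with the number of genes in brackets; each point is a gene and red lines are list medians. The medians of the endothelial groups are -0.57 and -0.06, and that of the biliary list is 2.98.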

How the data were processed

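RNA from whole livers was converted to biotinylated cDNA and read on 4 bead arrays. The authors deposited a table of linear probe intensity before normalization, each value paired with a detection p-value, and a second table of normalized intensity whose 4 columns shared nearly the same sorted values. The sources used here do not give the method of that normalization. Groups and replicate numbers came from the sample titles, and for some arrays the description field gives another replicate number. The platform annotation gave 23978 of 25697 probes 1 gene symbol and the other 1719 none.

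Background was corrected by normexp in limma 3.58.1 (R 4.3.3), which took the negative-control distribution out of the detection p-values, and 16 was added as offset (it pulls changes of dim probes toward 0). Quantile normalization and log2 followed. Probes detected (p under 0.05) on at least 2 arrays were fitted with lmFit and eBayes, two-sided, with Benjamini-Hochberg adjustment at 0.05 over all 13654 tested probes. Every member was named, with its brightest tested probe. Of 2 further pathway lists, called genes or, with none called, the 2 largest changes were named, and up to 3 called genes of each other list. Vegfa and Cxcl12 were added after their values were seen. Members and lists were chosen with earlier results of these data known, so lists have counts and medians only. The fit was tested on simulated data drawn from the 13654 probes. Alternatives covered background, offset, normalization, the detection filter, the authors' normalized intensity, the variance model, gene summary by mean, single arrays left out, blocking by replicate and the methods' t-test.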

Additional observations from a re-analysis of the deposited data

How the results depend on the processing

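Read by its brightest tested probe, 0 members were called with every alternative except a replicate block and the methods' t-test, while the dimmer Sox17 probe passed without control 1 and without DKO 1. The titles number the arrays 1 and 2 in both groups, but the labels do not say that equal numbers share a litter or batch. For some arrays the description field gives another number, so the block and the paired t-test rest on the titles. Over tested probes the difference between DKO 1 and DKO 2 correlated with that between control 1 and control 2 (r = 0.54, across genes). With a replicate block 660 genes were higher and 656 lower, and 1 member was higher (Sox17, adjusted p = 0.019) and 1 lower (Oit3, adjusted p = 0.047). Among the ligands and co-receptors it called 1 higher (Pdgfb, adjusted p = 0.0039) and 2 lower (Fgf1, 0.0055, and Cxcl12, 0.012), and among the further endothelial genes 3 higher (Cav1, 0.018, Nid1, 0.024, and Meis2, 0.042). A dimmer Vegfa probe also passed (adjusted p = 0.031), as did the dimmer Cxcl12 probes (adjusted p = 0.0028 and 0.024). The methods' t-test, paired by number, gave 405 higher and 557 lower genes at an unadjusted threshold, with 0 members higher and 1 lower (Oit3), and after adjustment 0 higher and 0 lower genes. Over all genes the counts, 166 and 160, were 63 and 74 without background correction, 15 and 25 without a filter, 92 and 89 for probes detected on all 4 arrays and 79 and 79 with the authors' normalized intensities; the cause was not tested. With single arrays left out they ran from 64 to 288 and from 55 to 250, which mixes fewer samples with the influence of an array.

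The pan-endothelial median, -0.06, was -0.018 without background correction, -0.12 with median scaling, -0.10 without a filter, -0.023 with the authors' normalized intensities, -0.12 as a mean (an alternative added after the values were seen) and 0.0025 for members detected on all 4 arrays, where fewer genes were tested. With single arrays left out it ran from -0.31 to -0.26, the sinusoidal median from -0.71 to -0.20 and their difference from -0.45 to 0.082.

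Of 29 members, 18 kept the sign of their log2 change in every alternative run. Cdh5 was at -0.0010 without background correction, and with median scaling Esam was at -0.074, Emcn at -0.014, Egfl7 at -0.015 and Ets1 at -0.060. With single arrays left out, changes ran from -0.30 to 0.14 for Fcgr2b, -0.59 to 0.70 for Cdh5, -0.81 to 0.70 for Flt4, -0.070 to 0.23 for Egfl7, -0.28 to 0.30 for Esam, -0.16 to 0.31 for Emcn, -0.59 to 0.18 for Gpihbp1, -0.32 to 0.32 for Ets1, -0.088 to 0.57 for Cd34, -0.50 to 0.93 for Ramp2 and -0.070 to 1.80 for Esm1. Slide and array position could not be used as a block, since the column names do not give them.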
